A study of Mus musculus with 6 samples.

Results

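Some genes lie within the span of another gene on the opposite DNA strand without any of their exons facing one of its exons, so that they face only its introns. In the deposited count table, 6071 of 57010 genes had this arrangement. They were chosen from the table's own exon positions: no exonic base was shared with an exon on the opposite strand, and at least 1 base lay between the lowest start and the highest end of an opposite-strand gene. No count entered this choice. The opposite-strand gene is called the host here, and a gene with several hosts (176 of the 6071) was paired with the one that held most of its exonic bases. Of the 6071 genes, 4879 (80.4%) lay with all their exonic bases inside 1 host and are called nested, and 1192 reached beyond it. There were 4378 distinct hosts, of which 3348 held 1 such gene and 1030 held 2 or more. Grouped by the span of the host, 2144 genes had a host under 50 kb, 2393 a host of 50 to 200 kb and 1534 a host over 200 kb.

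Nested genes are transcribed from within another gene's intron, and when they lie on the opposite strand the host's unspliced transcript carries the complement of their sequence. Introns are removed while or soon after the host is transcribed, and the RNA of very long genes is known to consist mostly of intron until splicing is complete. Many very long genes are used in neurons, where they encode synaptic adhesion molecules, ion channels and scaffold proteins, and antisense long noncoding RNAs are often annotated within them. Processed pseudogenes, which are reverse-transcribed copies of messenger RNAs, also land in long introns.

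The counts came from 6 wild-type (WT) mouse samples to which no perturbation was applied. The ESC group held 3 samples of embryonic stem cells of a WT line, and the neuron group held 3 samples of primary cortical neurons, made from cortices of embryonic day 16.5 and cultured over 7 days in vitro. The study used them as references for the start and the end of a path along which it placed Rai1-deficient cells, and the comparison asks which genes differ between these states. The labels do not say that replicates came from separate cultures or embryos, so p-values measure the spread between these samples, which may be technical. The batch label is the same split as the group, and batch and group cannot be told apart.

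Total counts ran from 513425 to 1775055 per library and were 2.73 times higher on average in ESC than in neuron libraries. The library names of neuron replicates 2 and 3 hold the unexplained word "empty". Of 10 pluripotency markers, 5 were tested and all 5 were lower in neurons, and 7, among them Pou5f1 and Nanog, had no count in any neuron library. Of 10 neuron markers, 4 were tested: Map2 and Nefm were higher in neurons, Slc17a7, a vesicular glutamate transporter, was lower, and Syn1 was not called. The defining neuron markers Tubb3 and Snap25 had at most 4 counts in any neuron library. Summed over the list, neuron markers reached 208 to 254 CPM (counts scaled to one common library size) in ESC and 1070 to 1311 CPM in neuron libraries, where Nefm gave 771, 837 and 699 counts of the list's 820, 880 and 735. Markers of other cell types did not all stay in one group. The summed level of 6 oligodendrocyte markers was 42.1 to 60.9 CPM in ESC and 262 to 290 CPM in neuron libraries, that of 5 astrocyte markers was 4.84 to 9.95 and 12.8 to 35.2 CPM, with Aldh1l1 at 0 in neurons, that of 4 microglial markers fell between 200.9 and 266 CPM in ESC and between 130 and 145 CPM in neuron libraries, and that of 3 mitotic markers was 26.1 to 33.5 and 3.21 to 10.4 CPM. The 4 fibroblast feeder markers stayed between 0.753 and 3.21 CPM in every library. The part of any of these in the values below was not tested.

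Sequences are shown here for members whose counts recur below. Libraries had been primed with oligo-dT, and a run of T in a member's transcript is a run of A on the strand of its host. Of 4149 nested members with a transcript in GENCODE release M21, 206 (4.97%) held at least 10 T in a row. For 3 noncoding members with a run, among those with the most counts, 70 bases around the longest run of each are given 5′ to 3′ on the member's strand, with that run in capitals.
Gm43980, opposite Tra2a: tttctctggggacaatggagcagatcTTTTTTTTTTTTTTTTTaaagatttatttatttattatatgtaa
Gm16185, opposite Slc25a36: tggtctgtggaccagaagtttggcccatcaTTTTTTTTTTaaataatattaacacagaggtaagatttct
1700023H06Rik, opposite Arrdc3: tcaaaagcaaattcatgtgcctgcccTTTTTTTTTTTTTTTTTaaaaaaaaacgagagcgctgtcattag
Protein-coding members with such runs are not shown. The longest run measured 17 bases in Gm43980 and in 1700023H06Rik and 10 in Gm16185. Of nested members with such a run, 29.6% passed the filter on low counts described below, against 13.4% without, but longer genes had both more often. With more than 1000 and up to 2000 exonic bases the shares were 23.1% and 20.7%, and with more than 2000 and up to 4000 bases 32.9% and 34.8%. Above 4000 bases they were 43.8% and 24.1%, and with more than 500 and up to 1000 bases 12.9% and 12.5%. Of members with up to 500 bases, 5 held such a run. For runs of at least 10 A the shares over all lengths were 24.6% with and 13.5% without. From over 1000 to 2000 bases these were 31.9% and 19.7%, from over 2000 to 4000 bases 29.7% and 35.4%, and above 4000 bases 36.4% and 28.9%. Among genes in same-strand introns, a class defined below, 14.1% held a run of at least 10 T.

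MicroRNAs made up 113 of the 6071 genes, and 98 of them had an entry in RefSeq's mature sequences. The table counts reads over the hairpin locus, so these counts do not measure the mature microRNA. Those whose counts passed the filter were Mir5620, opposite the chloride transporter gene Clcn4, and Mir378b, opposite the RNA-binding protein gene Msi2. Their mature sequences, from RefSeq on GRCm38.p6, are given 5′ to 3′ with the seed, bases 2 to 8, in capitals.
mmu-miR-5620-5p: aCGAGGCAggggcuuugacugug
mmu-miR-378b: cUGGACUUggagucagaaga
The 2 seeds differ. The hairpin of Mir5620 had 2, 4 and 2 counts across ESC replicates 1 to 3 against 16, 17 and 18 across neuron replicates 1 to 3, and that of Mir378b had 7, 4 and 3 against 9, 12 and 10. Every neuron library stood above every ESC library in both. Their log2 fold changes, neuron over ESC, were 3.35 ± 0.46 (SE, adjusted p = 2.78e-08) and 1.87 ± 0.44 (SE, adjusted p = 0.000206), and another 7 of the 470 small RNA genes among the members were tested.

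Genes lying opposite introns took a larger share of the counts in neurons. They held 1.21%, 1.13% and 1.15% of the counts across ESC replicates 1 to 3 against 4.20%, 3.74% and 3.98% across neuron replicates 1 to 3. The groups did not overlap, and the means were 1.16% ± 0.04 and 3.97% ± 0.23 (SD, n = 3 each). How counting treated strand is not given in the sources used here, so reads from one of these genes and reads from the opposite intron cannot be told apart. Nor can fewer cells of a type be told from less RNA per cell in bulk samples. The 9557 genes facing an opposite exon held 91.33% of the counts in ESC and 88.95% in neuron libraries (means, n = 3 each). The 41382 genes with nothing opposite held 7.51% and 7.08%. Whether reads were counted on the wrong strand was not tested, so counts given below for a gene are not shown to be its own transcript. The increase in the share of genes opposite introns was unequal over the host groups. Members in hosts under 50 kb went from 0.793% ± 0.037 in ESC to 1.35% ± 0.08 in neuron libraries, those in hosts of 50 to 200 kb from 0.323% ± 0.012 to 1.53% ± 0.09, and those in hosts over 200 kb from 0.0480% ± 0.0025 to 1.10% ± 0.06 (SD, n = 3 each).

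**Figure D1:**
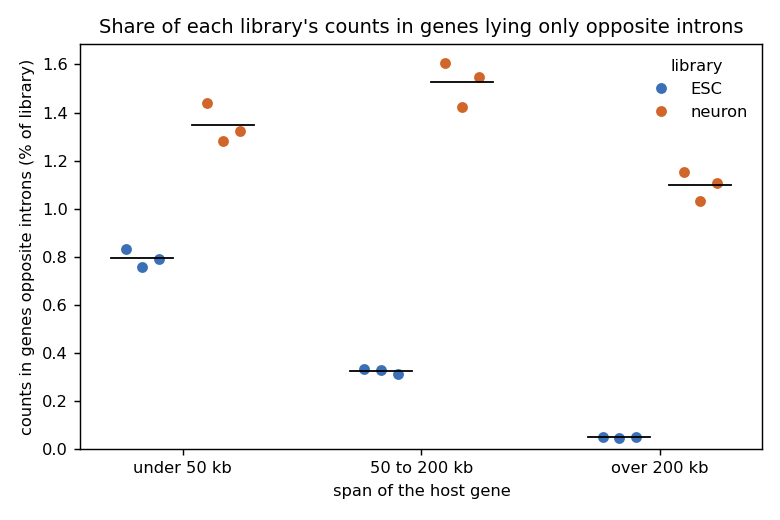
Share of each library's counts (% of the library, y axis) held by genes lying only opposite introns, by the span of the host gene (x axis). Points are single libraries and lines are group means. In all 3 host groups the neuron libraries lie above the ESC libraries, and the ESC share falls from 0.793% to 0.0480% as hosts get longer.

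Scaled by exonic length the contrast grew with the host. The density, in CPM of the raw library total per kb of exon, was 1.95, 1.78 and 1.86 across ESC replicates 1 to 3 against 3.38, 3.01 and 3.11 across neuron replicates 1 to 3 for hosts under 50 kb, a ratio of means of 1.70. For hosts of 50 to 200 kb it was 1.04, 1.04 and 0.972 against 5.05, 4.47 and 4.86, a ratio of 4.72. For hosts over 200 kb it was 0.280, 0.253 and 0.274 against 6.44, 5.78 and 6.20, a ratio of 22.8. Neuron density rose across the groups while ESC density dropped by more. Over all 57010 genes, 14.7% had every neuron library above every ESC library in CPM of the raw total, and 9.2% the reverse. Among the members, with or without a count, the corresponding numbers were 2003 (33.0%) and 309 (5.09%). Detection differed as well, with any count in 50.6% of all genes and in 69.9% of the members. By host span the numbers of members with every neuron library above, and the reverse, were 502 (23.4%) and 199 (9.28%) under 50 kb, 864 (36.1%) and 84 (3.51%) from 50 to 200 kb, and 637 (41.5%) and 26 (1.69%) over 200 kb. Every host group stood above the background in the first count, and the share of the second was below it in hosts over 50 kb. Raw totals and TMM-scaled library sizes, the scaling of the tests below, place the libraries differently. Densities were therefore also computed with TMM-scaled sizes, a choice made after seeing the data. The ratio over all genes then was 0.617, that of the members was 2.10, and those of the 3 host groups 1.05, 2.91 and 14.1. Under 50 kb the TMM-scaled densities were 2.48 ± 0.13 and 2.60 ± 0.13 (SD, n = 3 each), a difference within the spread of the libraries, so that the higher density there holds for raw totals only. The increase with host span remained. With TMM-scaled sizes, 12.3% of all genes had every neuron library above every ESC library and 11.5% the reverse. The corresponding numbers for members were 415 (19.4%) and 247 (11.5%) under 50 kb, 793 (33.1%) and 106 (4.43%) from 50 to 200 kb, and 618 (40.3%) and 31 (2.02%) over 200 kb.

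Genes were tested across the whole table with edgeR's quasi-likelihood test and Benjamini-Hochberg adjustment, and called at an adjusted p under 0.05. Of the 7150 genes that passed the filter on low counts, 85.6% were called, 47% as higher and 38.6% as lower in neurons. Of the 6071 members, 4241 had at least 1 count and 811 passed the filter. Of these 811, 611 were called higher and 121 lower in neurons, and 79 were not called. A gene that is high in a single group passes such a filter through that group, so these counts describe the genes that passed and not all members. By host span, 173 were higher and 90 lower of 313 tested under 50 kb, 258 and 27 of 312 from 50 to 200 kb, and 180 and 4 of 186 over 200 kb. No count in any ESC library was seen for 187 of the 811, 114 of them in hosts over 200 kb. The fitted log2 fold change of such genes depends on the prior count, so medians are also given with these genes at their lower bound. Median log2 fold changes were 1.12, 3.49 and 6.78 in the 3 host groups as fitted and 1.12, 2.93 and 3.28 with genes lacking counts in a group at the bound, against 0.37 over all tested genes both ways.

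**Figure D2:**
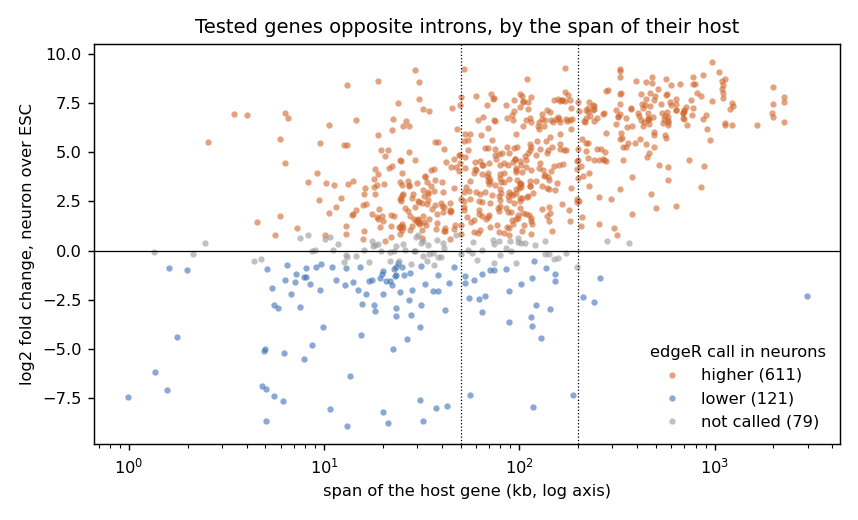
Fitted log2 fold change (neuron over ESC, y axis) of the 811 tested genes against the span of their host (kb, log axis), coloured by edgeR's call. Dotted lines mark 50 and 200 kb. Of the 121 genes lower in neurons, 90 have hosts under 50 kb and 4 have hosts over 200 kb.

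Genes nearest to the limits of these groups are given as a description. Just under 50 kb, Pantr2 in a host of 49.9 kb had 0, 0 and 1 ESC counts against 54, 44 and 52 neuron counts, and just over it, Evc, a ciliary gene, in Crmp1 (50.2 kb) had 8, 3 and 6 against 28, 20 and 16. Just under 200 kb, Gm47272 in Atp9b (199.9 kb) had 0, 0 and 1 against 12, 12 and 7, and just over it, Syt2, a synaptotagmin, in Ppp1r12b (201.3 kb) had 1, 2 and 3 against 7, 7 and 8. The tested member with the fewest exonic bases inside its host was Camta1, with 12 in Tnfrsf9, at 5, 6 and 9 ESC counts against 9, 9 and 7 neuron counts. All 5 have a positive fitted log2 fold change, but that of Camta1 was not called in 6 of the 10 fits that tested it, and the values of 2 others moved with single ESC libraries: without ESC replicates 1 and 3, Pantr2 went from 7.43 to 6.82 and 8.96, and Gm47272 from 5.16 to 4.55 and 6.69.

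Of the 5 largest increases in hosts over 200 kb among called members whose average log2 CPM was 5 or more and whose groups did not overlap, 4 were of noncoding genes. Under these limits 8 members were higher and 2 lower in hosts over 200 kb. From 50 to 200 kb 11 were higher and 10 lower, and under 50 kb 19 were higher and 31 lower. Under 50 kb more members were thus lower than higher at this level. Shares of all genes under these limits were not computed, so no background stands beside these numbers. Gm13389, an antisense RNA gene of 2 exons at chromosome 2, 6889081 to 6891735 in the table (GRCm39 per the submitters' processing notes), faces introns of Celf2, which encodes an RNA-binding splicing regulator. It had no count across ESC replicates 1 to 3 against 75, 86 and 54 counts across neuron replicates 1 to 3, a level of 104 ± 21.5 CPM (SD, n = 3) that was at least 39.7-fold higher than the 3 counts per library used as the floor (adjusted p = 1.65e-17). Gm43507, opposite Ldb2, a cofactor of LIM-domain transcription factors, had 0 counts in each ESC library against 63, 55 and 50 in neurons, at least 31.0-fold higher (adjusted p = 9.54e-17). Gm47423, opposite Ntrk2, the gene of the BDNF receptor TrkB, had 0 counts in each ESC library against 67, 36 and 54 in neurons, at least 28.9-fold higher (adjusted p = 9.38e-16). All 3 were thus not detected at this depth in ESC and detected in every neuron library. Angptl2, a secreted angiopoietin-like protein, lies opposite Ralgps1, an exchange factor for Ral, and had 0, 0 and 3 counts against 121, 58 and 111, a ratio of 163 (95% counting interval 55.1 to 793, adjusted p = 2.20e-13). All its ESC counts came from replicate 3, and its fitted log2 fold change of 7.14 was 9.90 without that library and 6.43 without ESC replicate 1. Gm45290, opposite the RNA demethylase gene Fto, had 2, 2 and 0 counts against 80, 53 and 72, a log2 fold change of 6.27 ± 0.41 (SE, adjusted p = 7.76e-17) that was 5.66 without ESC replicate 3.

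Lower members in hosts over 200 kb were few. Rps4l, a pseudogene of a ribosomal protein gene, lies opposite Tmtc1 and had 70, 39 and 56 ESC counts against 7, 3 and 9 neuron counts (log2 fold change -2.34 ± 0.34 SE, adjusted p = 9.21e-08). Eif2s2, a subunit of the initiation factor that brings the first tRNA to the ribosome, lies opposite the agouti gene (symbol a) and had 71, 23 and 49 counts against 10, 9 and 13 (-1.38 ± 0.34 SE, adjusted p = 0.000321). Its ESC libraries all stood above its neuron libraries, but under scaling to total counts its log2 fold change was -0.65 and was not called. The other two, outside the naming rule and named after their values were seen because the count was small, were Tacc2 opposite Fgfr2, with 23, 33 and 29 counts against 5, 4 and 1, and Itsn1, with 42, 30 and 33 against 3, 2 and 5 (adjusted p = 1.39e-05 and 4.60e-07). Of these 4, 3 were protein-coding and 1 was a pseudogene.

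**Figure D3:**
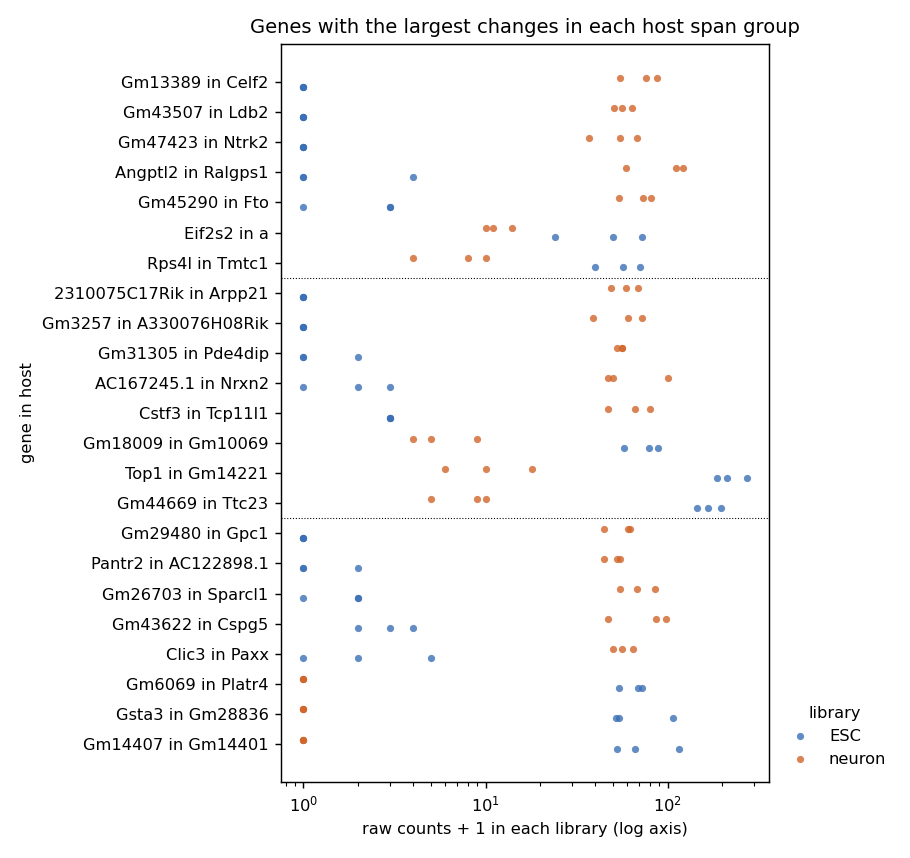
Raw counts plus 1 in each library (log axis) for the genes with the largest called changes in each host group among those whose average log2 CPM was 5 or more and whose groups did not overlap, over 200 kb at the top and under 50 kb at the bottom, with the host named after each gene. Each point is 1 library. Genes that rose had at most 4 counts in any ESC library and at least 36 in every neuron library.

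Hosts for synaptic and axonal adhesion molecules were followed as a list of 36 genes, of which 29 held 67 members. Over all 67 members the counts were 12, 6 and 10 across ESC replicates 1 to 3 against 596, 577 and 432 across neuron replicates 1 to 3, although neuron libraries were the shallower ones. The 17 members that were tested lay in 14 hosts and all were called higher, with a median log2 fold change of 7.51 as fitted and 3.38 with the 14 lacking ESC counts at the bound. Those 14 members passed the filter through their neuron counts, so they could not be called lower. Over all tested genes, 47% were called higher and 38.6% lower. Neurexins organise synapses from the presynaptic side. AC167245.1, opposite the neurexin gene Nrxn2, had 2, 1 and 0 against 100, 46 and 49, a ratio of 109 (95% counting interval 36.9 to 535). Its fitted log2 fold change was 6.55, 7.17 without ESC replicate 1 and 5.95 without ESC replicate 3. Gm48967, opposite the protocadherin gene Pcdh9, had 0 counts in each ESC library against 55, 54 and 27 in neurons, at least 24.8-fold higher (adjusted p = 8.34e-15). No ESC library reached a neuron library in either. Members opposite Tenm2, Ptprd, Negr1, Ntm, Ctnnd2, Cntn5, Nlgn1 and Csmd1 had no ESC count and between 6 and 27 counts per neuron library in the member with the most counts.

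Channel and receptor hosts held fewer tested members. Of 32 listed hosts, 21 held 44 members, with 1, 0 and 2 counts in the ESC and 253, 210 and 199 in the neuron libraries. The 8 tested members, in Cacna1b, Cacna2d3, Fgf14, Grin2b and Kcnip4, had no ESC count and were all called higher. They passed the filter through their neuron counts, so they could not be called lower. Over all tested genes, 47% were called higher and 38.6% lower. Gm43670, opposite the potassium channel-interacting protein gene Kcnip4, had 43, 41 and 34 counts in neurons, at least 21.8-fold above the floor (adjusted p = 7.93e-15). Lrtm1, a leucine-rich repeat membrane protein opposite the calcium channel subunit gene Cacna2d3, had 28, 22 and 23, at least 13.5-fold (adjusted p = 2.38e-12). Scaffold and RNA-binding hosts, 24 listed and 19 with 39 members, had 1, 1 and 1 ESC counts against 495, 441 and 396 neuron counts. All 15 tested members, in 13 hosts, were called higher, but 14 of them had no ESC count and could not be called lower. Besides Gm13389, the tested members included Gm47339 opposite Nav3, a neuron navigator, with 41, 38 and 46 neuron counts (at least 23.3-fold, adjusted p = 5.79e-15) and C630031E19Rik opposite the neuronal transcription factor gene Myt1l with 32, 38 and 41 (at least 20.8-fold, adjusted p = 3.66e-14). Gm15990, opposite the synapsin gene Syn3, had 1, 1 and 1 counts against 39, 27 and 23, a ratio of 49.9 (95% counting interval 16.5 to 247), and Gm11659, opposite the tau gene Mapt, had none in ESC against 22, 15 and 33.

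Hosts tied to pluripotency gave little to compare. Of 28 listed hosts such as Esrrb, Tet1 and Dnmt3b, 5 held 7 members. Those 7 had 15, 10 and 10 ESC counts against 6, 7 and 5 neuron counts, and none passed the filter.

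Several protein-coding members are textbook nested genes. Lrrtm1, a leucine-rich repeat protein that organises excitatory synapses, lies opposite an intron of Ctnna2, the neuronal alpha-catenin. It had no count in ESC and 45, 38 and 27 in neuron replicates 1 to 3, 52.9 ± 8.4 CPM (SD, n = 3), at least 20.1-fold higher (adjusted p = 3.04e-14). Opposite Nf1, the neurofibromin gene, Omg, which encodes a myelin-associated glycoprotein, had 0 counts in each ESC library against 16, 14 and 16 in neurons, and Evi2a had 0 in each ESC library against 15, 6 and 6 (at least 8.56-fold and 4.84-fold higher, adjusted p = 1.57e-10 and 1.67e-08). Beside Omg stand the oligodendrocyte markers given above, of which Mog and Olig1 were also called higher, and their part in this result was not tested. The other listed nested genes did not pass the filter: Evi2b had 1 count in all, Timp1 opposite Syn1 had 4, 1 and 1 in ESC against 6, 12 and 8, Lrrn3 had 2, 0 and 0 against 1, 7 and 5, Lrrtm3 had 0 in each ESC library against 2, 4 and 5, and Gpr21 and F8a had at most 2 in any library. Timp3, Timp4 and Lrrtm2, often cited in the same way, shared exonic bases with an opposite exon in this table and are not members, and Gpr52 was not matched.

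The promoters of Lrrtm1 and Lrtm1, both without an ESC count, are shown because these nested protein-coding genes had counts in every neuron library. The 300 bases run from 250 before to 50 after the annotated start, 5′ to 3′ on the gene's strand, from RefSeq on GRCm38.p6, with CpG dinucleotides in capitals, at chr6:77242227-77242526 (+) for Lrrtm1 and chr14:29017958-29018257 (+) for Lrtm1.
Lrrtm1: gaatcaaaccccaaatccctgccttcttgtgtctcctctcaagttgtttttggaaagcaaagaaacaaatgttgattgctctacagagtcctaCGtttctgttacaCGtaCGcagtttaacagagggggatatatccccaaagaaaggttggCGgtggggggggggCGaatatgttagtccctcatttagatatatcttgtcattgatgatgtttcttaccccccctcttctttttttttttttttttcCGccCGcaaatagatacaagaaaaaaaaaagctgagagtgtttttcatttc
Lrtm1: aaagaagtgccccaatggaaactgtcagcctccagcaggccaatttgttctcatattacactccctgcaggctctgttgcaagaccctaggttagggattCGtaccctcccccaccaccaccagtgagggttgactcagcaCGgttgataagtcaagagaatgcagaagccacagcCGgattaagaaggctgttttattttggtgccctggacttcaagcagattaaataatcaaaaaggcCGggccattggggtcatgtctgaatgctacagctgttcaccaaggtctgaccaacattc
These windows held 7 and 4 CpG, and neither held the motif TATAAA on either strand. Over all 32851 RefSeq promoters of this length the median was 7 CpG, and TATAAA was present on the gene's strand in 8.32% and on the other in 6.95%. Promoters were found for 1418 of the 6071 members, with a median of 6 CpG and shares of 7.30% and 6.05%. Members called lower in neurons had a median of 18 CpG over 59 promoters of 45 genes, and members called higher had 6 over 241 promoters of 196 genes. The median also differed by kind of gene, at 11 for protein-coding members (13 if called higher) and 4 for antisense members (4 if called higher). By host span it was 8, 5 and 4 from the shortest to the longest hosts. The part of kind and host span in the difference between called members was not tested.

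In hosts of 50 to 200 kb the largest increases under the same limits (average log2 CPM 5 or more, groups not overlapping) were again mostly noncoding. 2310075C17Rik, opposite Arpp21, which encodes a cAMP-regulated phosphoprotein of neurons, had 0 counts in each ESC library against 58, 68 and 48 in neurons (at least 32.2-fold, adjusted p = 1.18e-16). Gm3257, a processed pseudogene opposite the noncoding gene A330076H08Rik, had 0 counts in each ESC library against 71, 60 and 38 in neurons (at least 30.9-fold, adjusted p = 2.76e-16). Gm31305, opposite the centrosomal protein gene Pde4dip, had 1, 0 and 0 against 52, 55 and 55, and its host moved the other way, with 27, 26 and 26 counts against 3, 2 and 1. Member and host differed in direction here, and the fitted log2 fold change of Gm31305, 7.54, was 9.02 without ESC replicate 1. Cstf3, a subunit of the factor that cleaves pre-mRNA ends, lies partly beyond Tcp11l1 and had 2, 2 and 2 counts against 65, 79 and 46 (log2 fold change 5.63 ± 0.38 SE, adjusted p = 2.09e-16). Under these limits the lowest log2 fold changes were those of Gm44669 opposite Ttc23, with 195, 145 and 166 ESC counts against 9, 8 and 4 neuron counts (-3.82 ± 0.26 SE, adjusted p = 3.93e-16), Top1, the DNA topoisomerase I gene, opposite Gm14221, with 271, 210 and 186 against 5, 9 and 17 (-3.65 ± 0.26 SE), and Gm18009 opposite Gm10069, with 88, 57 and 78 against 3, 8 and 4 (-3.11 ± 0.34 SE). Without neuron replicate 3 the value for Top1 was -4.31, and without neuron replicate 2 that for Gm18009 was -3.70.

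Hosts under 50 kb held changes of both directions. Gm29480, opposite the glypican gene Gpc1, had 0 counts in each ESC library against 61, 60 and 44 in neurons (at least 30.4-fold, adjusted p = 1.62e-16), and Gm26703 reaches beyond the end of the matricellular protein gene Sparcl1 and had 1, 1 and 0 counts against 84, 54 and 67 (ratio 172, 95% counting interval 47.1 to 1433). Pantr2, a noncoding gene, had 0, 0 and 1 against 54, 44 and 52 as given above, Gm43622 opposite the neural proteoglycan gene Cspg5 had 1, 2 and 3 against 97, 85 and 46, and Clic3, a chloride intracellular channel gene opposite the DNA repair gene Paxx, had 0, 4 and 1 against 64, 49 and 55. These 5 genes had at most 4 counts in an ESC library. The log2 fold change of Pantr2, 7.43, was 6.82 without ESC replicate 1 and 8.96 without ESC replicate 3, and that of Clic3, 5.69, was 4.96 without ESC replicate 1 and 7.16 without ESC replicate 2. The 3 largest decreases under the same limits (average log2 CPM 5 or more, groups not overlapping) were of genes with no neuron count. Gm14407, a pseudogene opposite Gm14401, had 115, 52 and 65 ESC counts against no neuron count (at least 14.8-fold lower, adjusted p = 3.16e-13), Gsta3, a glutathione S-transferase gene opposite Gm28836, had 106, 53 and 51 against none (at least 13.4-fold lower, adjusted p = 1.24e-12), and Gm6069, a pseudogene opposite the noncoding gene Platr4, had 68, 53 and 71 against none (at least 12.6-fold lower, adjusted p = 3.34e-13). Reads of pseudogenes and of the glutathione S-transferase family can be split among near-identical copies, so these are uncertain.

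The 10 members with the highest mean CPM changed in both directions. Gm43980, a gene of 1 exon opposite the splicing regulator gene Tra2a, had 1578, 969 and 1193 ESC counts against 162, 178 and 129 neuron counts (log2 fold change -2.23 ± 0.12 SE, adjusted p = 4.34e-19). Gm16185, opposite the mitochondrial carrier gene Slc25a36, had 1141, 759 and 978 against 171, 153 and 88 (-2.06 ± 0.14 SE), and ENSMUSG00000121095.1, which reaches beyond the vesicular nucleotide transporter gene Slc17a9, had 770, 572 and 649 against 167, 126 and 117 (-1.53 ± 0.12 SE). All 3 fell, and their neuron counts stayed above 80 in every library. Zmynd8, a chromatin reader with 36 exons in this table, has a short noncoding host, BC046401, within it and had 557, 407 and 510 counts against 6, 3 and 3 (-6.16 ± 0.24 SE, adjusted p = 2.90e-24), while that host had 42, 27 and 22 against 43, 25 and 29. Upward changes were seen for 1700023H06Rik opposite Arrdc3 (6, 6 and 5 against 186, 134 and 111, 5.36 ± 0.27 SE), 1700109K24Rik opposite the splicing factor gene Rbfox2 (35, 31 and 23 against 183, 171 and 166, 3.29 ± 0.19 SE), H2-T24, a class I histocompatibility gene (68, 74 and 60 against 156, 143 and 173, 1.97 ± 0.18 SE), Vasn, which encodes a TGF-beta-binding protein, opposite Coro7 (112, 100 and 68 against 218, 168 and 161, 1.71 ± 0.16 SE) and Gsdme, a pore-forming gasdermin, opposite Mpp6 (343, 274 and 294 against 325, 362 and 248, 0.79 ± 0.13 SE, adjusted p = 5.21e-07). For the last, raw counts overlapped between groups and the difference lies in the scaled values, which were 263 ± 4 CPM in ESC and 454 ± 75 CPM in neurons. Gm15777, opposite the coenzyme Q gene Coq2, had 138, 75 and 99 against 96, 80 and 79 (0.47 ± 0.18 SE, adjusted p = 0.0148), and this call was lost without ESC replicate 2 (0.28), without ESC replicate 3 (0.37), without neuron replicate 3 (0.43) and with no filter (0.31).

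More members were higher than lower in each kind of gene with over 50 tested. Over all tested genes, 47% were called higher and 38.6% lower. These counts describe genes that passed the filter, and those without an ESC count passed it through the neuron libraries. Such genes were 81 of the tested antisense genes, 24 of the protein-coding genes and 28 of the processed pseudogenes. Among TEC genes they were 28, and among other long noncoding genes 13. Of 233 tested antisense genes, 192 were called higher and 22 lower in neurons, of 231 protein-coding genes 149 and 49, of 141 processed pseudogenes 104 and 20, of 80 genes awaiting experimental evidence of their type (TEC) 72 and 7, and of 55 other long noncoding genes 46 and 7. Density was higher in neurons in all of these kinds. It went from 1.86 ± 0.03 in ESC to 9.10 ± 0.66 in neurons for antisense genes and from 0.840 ± 0.046 to 2.00 ± 0.10 for protein-coding genes. For processed pseudogenes it went from 1.69 ± 0.07 to 7.22 ± 0.39 and for TEC genes from 2.22 ± 0.11 to 6.65 ± 0.32. For other long noncoding genes it went from 0.664 ± 0.032 to 3.33 ± 0.25 (CPM per kb, SD, n = 3 each). Groups of libraries did not overlap for any of them, and with TMM-scaled sizes the ratios of means were 3.02, 1.47, 2.63, 1.85 and 3.09 in this order. Pseudogene reads can belong to their parent genes, so that part is uncertain.

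Genes of other arrangements had ratios nearer to 1. Density was 24.8 ± 0.1 in ESC and 24.1 ± 0.1 in neuron libraries for the 9557 genes facing an opposite exon, and 0.846 ± 0.054 and 0.798 ± 0.023 for the 41382 genes with nothing opposite. The closest match in setting is 4922 genes with nothing opposite, called here genes in same-strand introns. They share no base with a same-strand exon but at least 1 base with the span of a same-strand gene. Unlike nested members, they may reach beyond that gene. Their density was 0.175, 0.180 and 0.178 across ESC replicates 1 to 3 against 0.217, 0.209 and 0.195 across neuron replicates 1 to 3, against 1.63, 1.56 and 1.55 and 7.41, 6.58 and 7.07 for nested members. Nested members exceeded them in every library, and the ratio of neuron to ESC means was 4.43 for nested members and 1.16 for genes in same-strand introns. With TMM-scaled sizes these ratios were 2.74 and 0.719, so the direction for genes in same-strand introns depended on the scaling, and those of genes facing an opposite exon and with nothing opposite were 0.601 and 0.582. Of the 4922, 22 were tested, 10 higher and 12 lower, and 65 (1.32%) had every neuron library above every ESC library, against 1703 (34.9%) of the 4879 nested members. The reverse held for 104 (2.11%) and 186 (3.81%). These shares depend on detection, since 19.6% of the genes in same-strand introns and 68.7% of the nested members had any count. The difference was also seen within classes of exonic length: for genes of up to 500 bases, density was 3.48 ± 0.16 and 12.6 ± 0.9 in nested members and 0.401 ± 0.044 and 0.499 ± 0.049 in genes of same-strand introns, and for genes of more than 2000 and up to 4000 bases it was 1.29 ± 0.000648 and 6.36 ± 0.43 against 0.0913 ± 0.0022 and 0.107 ± 0.014. No test was made between these classes.

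**Figure D4:**
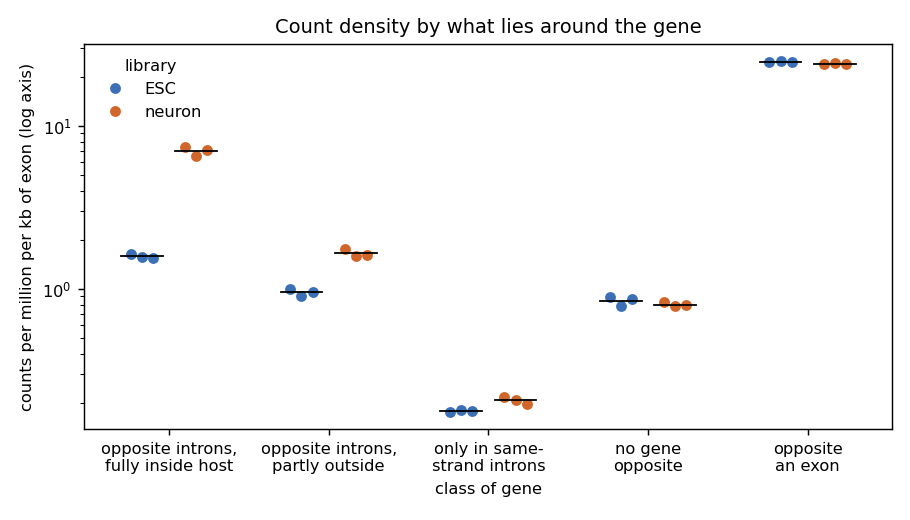
Density of counts (CPM of the raw total per kb of exon, log axis) in classes of genes by what lies around them. Points are single libraries and lines are group means. Nested genes have means of 1.58 in ESC and 7.02 in neurons, and genes in same-strand introns 0.178 and 0.207, where the second pair changes order with TMM-scaled sizes (ratio 0.719).

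Exons of the hosts as a group changed less than the genes opposite their introns. Over the exons of the 722 hosts longer than 200 kb, density was 1.67 ± 0.05 in ESC and 1.72 ± 0.04 in neuron libraries, a ratio of 1.03 that was 0.638 with TMM-scaled sizes. In the 510 of these whose exons face no opposite exon it was 0.205 ± 0.026 and 0.498 ± 0.025, against 0.286 ± 0.015 and 6.88 ± 0.38 for the 1468 members nested in hosts of that span, and with TMM-scaled sizes the means were 0.273 and 0.409 against 0.381 and 5.66. As groups, nested genes thus stood a little above these 510 hosts in ESC and far above them in neurons. The 1468 members were not limited to these 510 hosts. Against all 722 hosts they stood below in ESC (0.286 against 1.67) and above in neurons (6.88 against 1.72). Single pairs are given per length. In neurons, Gm13389 had 198 CPM per kb and the exons of Celf2 0.486, Gm47423 44.3 and Ntrk2 1.11, and Lrrtm1 21.2 and Ctnna2 0.427. The order was reversed for Gm15990 at 15.6 and Syn3 at 40.3, the exons of which face Timp3. The 811 tested members had 736 hosts, of which 239 were tested. Over the 263 pairs with both tested, 94 were higher in both, 21 lower in both, 55 had a higher member and a lower host, and 19 the reverse. Pearson's r of the log2 fold changes was 0.384 (Spearman's rho 0.324), as a description over pairs that share hosts and libraries. Of all 811 tested members, 611 were higher, and 187 had no ESC count and could not be called lower. Over all tested genes the shares were 47% higher and 38.6% lower. Whether a member and its host are linked was not tested.

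Members were also set beside the genes that face their host's exons. For 281 tested members, the host had a gene on the member's own strand that shared exonic bases with it, here called the exon-facing neighbour. Among the 247 members whose neighbour was tested, Pearson's r of the log2 fold changes was 0.721 (Spearman's rho 0.720), and it was 0.647, 0.593 and 0.606 in the 3 host groups, again as a description. Both were higher for 137 members in 117 hosts and both lower for 17, the member was higher and the neighbour lower for 38, and the reverse held for 5. Since 611 of all 811 tested members were higher, and 187 had no ESC count and could not be called lower, pairs with both higher are frequent in any case. The shares over all tested genes were 47% higher and 38.6% lower. Whether a member and its neighbour are linked was not tested. Opposite Arpp21, the neighbour 2900079G21Rik had 0 counts in each ESC library against 493, 360 and 378, and opposite Myt1l, Gm20208 had 0 in each ESC library against 147, 158 and 119. Intron-facing and exon-facing genes of both hosts thus had counts in the same libraries and none in the others.

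Called members that shared a host were mostly higher in neurons, as were called members in general. Of 53 hosts with at least 2 called members, 121 members in all, 49 had all of them higher in neurons, 1 had all lower and 3 had both directions. Of all 732 called members, 83.5% were higher, and of those in hosts over 200 kb 97.8%. The shares over all tested genes were 47% higher and 38.6% lower. Members without an ESC count passed the filter through neuron counts and could not be called lower. These numbers therefore do not show that members of 1 host go together. Opposite the glutamate receptor-interacting protein gene Grip1, 5 members were tested and higher, among them Grip1os1, chosen after its values were seen, with 0 counts in each ESC library against 24, 22 and 13 in neurons. Opposite Nf1, Omg, Evi2a and, outside the naming rule, Evi2 and AU040972 were tested and higher, and the other 3 of its 7 members did not pass the filter. Sox2ot, a long noncoding gene overlapping Sox2, and Rsf1 each had 4 tested members, all higher. Hosts with the most members had few counts in them. Fgfr2, whose span in this table is 2961 kb, held 27 members with 53, 53 and 50 ESC counts against 16, 25 and 11 neuron counts, with 1 tested, Tacc2, which fell. Tspear held 16 members with 4 counts in all libraries together, Zfp697 held 11 with 0, 1 and 0 against 71, 31 and 39, and Gm26754 held 11 with 13, 3 and 10 against none. The other hosts with 8 to 10 members were Gm20528, C130026I21Rik, Il1rapl2, Olfr56, Tenm4, Sugct, Immp2l and Gm44748. In Sugct the host had 613, 414 and 527 ESC counts against 58, 47 and 42 neuron counts, while its 8 members had 1 count in all.

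Distance from the host's exons went with the level of the nested genes. The median distance was 1318 bases in hosts under 50 kb, 4406.5 in hosts of 50 to 200 kb and 13493.5 in hosts over 200 kb. In ESC, density fell from 4.31 ± 0.19 for the 371 genes within 200 bases of a host exon to 0.245 ± 0.022 for the 864 genes more than 20 kb away. In neurons it fell from 10.9 ± 0.6 to 4.98 ± 0.21, so the ratio of means went from 2.54 to 20.3, or from 1.57 to 12.5 with TMM-scaled sizes. Distance and host span go together, and within hosts over 200 kb the ratio was between 18.5 and 28.0 in all 5 classes of distance, with ESC density from 0.809 ± 0.050 to 0.221 ± 0.020. Within hosts of 50 to 200 kb the ratio went from 3.05 within 200 bases to 8.76 beyond 20 kb. Genes near host exons were higher in both groups of libraries, and genes far from them differed more between the groups.

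**Figure D5:**
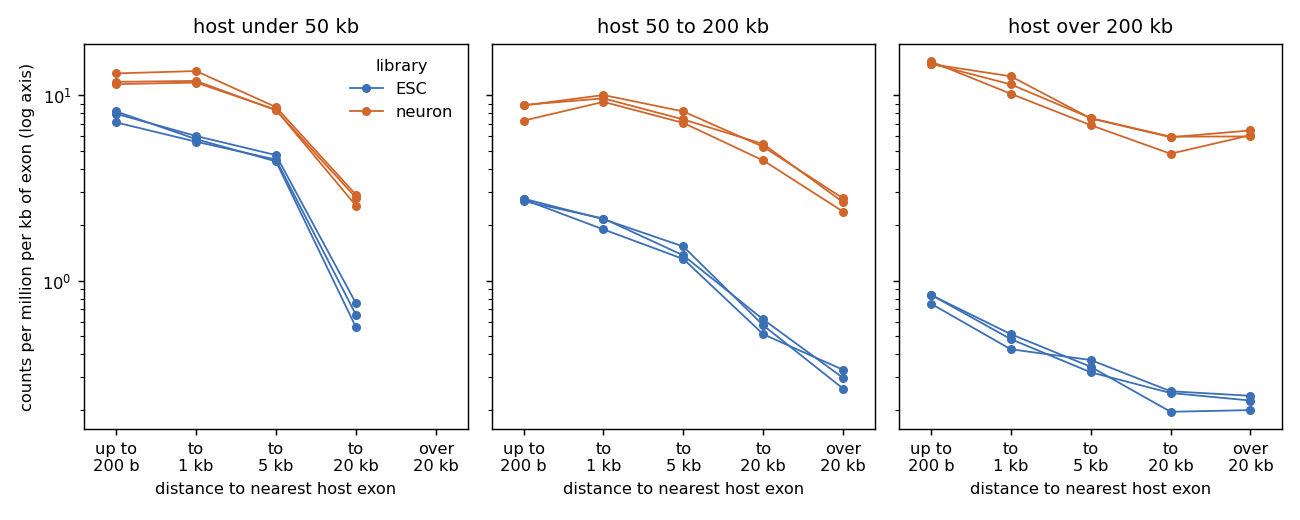
Density of counts (CPM of the raw total per kb of exon, log axis) of nested genes by their distance from the nearest exon of the host, in 3 panels by host span. Each line is 1 library. Within 200 bases of a host exon density is higher than beyond 5 kb in every library, no count was seen for the 4 genes over 20 kb from an exon in hosts under 50 kb, and in hosts over 200 kb the ESC lines run from 0.809 to 0.221 on average.

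The place along the host went with the level in hosts under 50 kb. Hosts were divided into 5 equal stretches from the 5′ end, and nested genes were grouped by the stretch in which they lie. In hosts under 50 kb, density in ESC was 2.10 ± 0.27 in the stretch at the 5′ end and 6.31 ± 0.58 in that at the 3′ end, and in neurons it was 10.9 ± 0.5 and 6.45 ± 0.25. The ratio of neuron to ESC means went from 5.19 through 2.69, 1.70 and 1.18 to 1.02. With TMM-scaled sizes it went from 3.20 through 1.66, 1.05 and 0.728 to 0.631, with 8.41 ± 0.82 in ESC and 5.30 ± 0.17 in neurons at the 3′ end. Neuron libraries thus stood above ESC libraries at the 5′ end under both scalings, and at the 3′ end they overlapped them with raw totals and lay below them with TMM-scaled sizes. From the 5′ to the 3′ end, 22, 44, 25, 19 and 5 tested members were called higher. Those called lower were 3, 8, 8, 13 and 11, of 27, 60, 38, 38 and 20 tested. The shares over all tested genes were 47% higher and 38.6% lower. These counts describe only members that passed the filter. In hosts over 200 kb the ratios were 36.4, 29.2, 19.0, 29.7 and 19.3, and between 11.7 and 22.4 with TMM-scaled sizes.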

How the data were processed

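The authors' deposited table holds raw counts for each gene beside its exon positions, its strand and a length, which matched the summed non-overlapping exon length in all genes. Per the labels' protocols, oligo-dT priming selected polyadenylated RNA and sequencing was paired-end. Per the submitters' processing notes, cutadapt, STAR and RSEM and the build GRCm39 (mm39) were used, with no role or version given, and per the file headers the columns are named after STAR alignment files. The counting tool and its strand setting are not given in the sources used here. Positions are as in the table. Symbols and types came from GENCODE M21 by identifier (4929 of 57010 genes had none), and no position was converted between builds. All 6 sample columns were matched by library name.

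Exons were intersected by strand with bedtools 2.31.1. Counts were analysed as deposited with edgeR 4.0.16 in R 4.3.3: filterByExpr (minimum count 10, leaving 7150 genes), TMM, a robust quasi-likelihood fit of all 6 samples with no covariate, and Benjamini-Hochberg adjustment at 0.05. CPM are scaled to TMM library sizes. Densities use raw totals and exonic kb, with TMM-scaled sizes as an alternative (a choice made after seeing the data). Standard errors are the log2 fold change divided by the square root of F and are approximate. A fold against a group without counts is a lower bound against 3 counts per library, which were 2.26 to 2.90 CPM in ESC and 3.92 to 4.81 CPM in neuron libraries, and one against 1 to 3 counts has an exact 95% interval. Bounds and intervals cover counting error only.

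Named genes were, per host group, the 5 highest and 3 lowest log2 fold changes among called members with average log2 CPM of at least 5 and groups that did not overlap, then the 10 members with the most CPM, known nested genes, tested miRNAs, the tested member with most counts in each listed host, and the 10 hosts with most members (ties kept). Members and lists were chosen with earlier results of these data known. Some named members, markers and sequences are not reported here. The edgeR steps were tested on simulated data for 6044 genes, 200 of them changed 4-fold: 86.5% were called, and 4.95% of calls were unchanged genes. Alternatives were DESeq2 1.42.0 size factors and Wald test, total counts, dropping the filter, requiring a mean of 10 or more counts, a replicate block, limma-voom (limma 3.58.1), leaving out each replicate, 3 stricter memberships and another choice of host. Python 3.11.15 was used for all else.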

Additional observations from a re-analysis of the deposited data

How the results depend on the processing

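All fits kept the majority of called members on the neuron side, and none of the 67 genes named by the rule or of 17 others named with values had a fit with the other sign. With TMM-scaled sizes, a choice made after seeing the data, the ratio of neuron to ESC density was 2.10 for all members and 1.05, 2.91 and 14.1 by host span. Of 732 members called, 565 were called in each of the 6 fits that leave out 1 replicate; those fits called 647 to 966 in all, 563 to 795 higher and 84 to 173 lower. With total counts the median of all tested genes moved by 0.73, and 655 members were higher and 80 lower, 3 of the calls with the other sign. Without a filter 2029 were called, 1717 higher and 312 lower, or 572, 797 and 660 by host span. With a mean of at least 10 counts, which tests fewer members, 362 were called, 259 higher, or 171, 123 and 68 by host span. Smaller memberships gave smaller counts: with all exonic bases inside 1 host, 67 lower and 158 called under 50 kb, with shares of counts of 0.722% in ESC and 3.20% in neurons, and at least 1 kb from opposite exons, 405 called, 372 higher and 33 lower, 85 under 50 kb and 179 from 50 to 200 kb, with shares of 0.476% and 2.31%. DESeq2's Wald test called 698 and limma-voom 723. Replicate numbers are shared by the groups only as numbers: the correlation of deviations ran from -0.0245 to 0.0194 over all pairs. With the replicate block 724 members were called, 607 higher and 117 lower. Calls for Eif2s2, Gm15777 and Camta1 depended on settings, as given with their values, and the cause was not tested. Depth limits all values: a gene under 3 counts in a library could not be told from absence.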

Other observations

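Some protein-coding members outside the naming rule, chosen after their values were seen, also rose in hosts over 200 kb. Flrt3, an adhesion protein that binds latrophilins and lies opposite Macrod2, had 0, 0 and 1 counts across ESC replicates 1 to 3 against 36, 30 and 31 across neuron replicates 1 to 3, a ratio of 163 (95% counting interval 28.6 to 6511, adjusted p = 1.16e-13). P2ry14, a receptor for nucleotide sugars opposite Med12l, had 0, 1 and 0 against 21, 29 and 25, a ratio of 126 (22.0 to 5049, adjusted p = 5.19e-12). Lrrc4, a netrin-G ligand opposite Snd1, had 2, 0 and 1 against 22, 20 and 23, a ratio of 36.4 (11.9 to 181, adjusted p = 8.36e-11). Each neuron library stood above each ESC library in all 3 genes. Their fitted log2 fold changes moved with single ESC libraries: Flrt3 at 6.80 was 6.19 without ESC replicate 1 and 8.33 without ESC replicate 3, P2ry14 at 6.43 was 5.83 without ESC replicate 1 and 8.01 without ESC replicate 2, and Lrrc4 at 4.99 was 5.62 without ESC replicate 1. A smaller change was that of Angpt2, an angiopoietin opposite Mcph1, with 21, 19 and 25 counts against 32, 31 and 30, where log2 fold change was 1.26 ± 0.27 (SE, adjusted p = 6.94e-05).

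Several hosts held 3 tested members. Opposite Nav3, besides Gm47339, Gm47337 had 0 counts in each ESC library against 33, 41 and 25 in neurons, and Gm47338 had 0 in each ESC library against 16, 16 and 10. Opposite the receptor phosphatase gene Ptprd, which held 3 tested members, the pseudogenes Gm11252 and Gm11242 had 0 in each ESC library against 9, 7 and 10 and 18, 23 and 11 in neurons.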
